A study of Mus musculus with 16 samples.

Results

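The genes described here make cholesterol and fatty acids in the dorsal hippocampus of the mouse, and were measured by RNA-Seq in mice drinking water or caffeine, at rest or after spatial learning. The 35 members were chosen by name and found in the count table by their Ensembl identifiers, and all 35 were present among its 35328 genes and all 35 passed the filter on low counts, which left 17830 genes to test. They comprise 8 enzymes of the mevalonate and isoprenoid steps, 11 enzymes from squalene to cholesterol, 5 SREBP factors and their regulators, 8 genes of fatty acid synthesis, elongation and desaturation, and 3 genes of cholesterol transport and removal. After learning, averaged over both drinks, 5 members were higher than in the home cage and 0 were lower: Elovl6, Cyp51, Acaca, Sc5d and Insig2, by 1.10-fold to 1.17-fold. In either direction that is 14.3% of members, beside 14.5% of all genes tested, of which 7.81% were higher and 6.71% lower. Without home cage caffeine replicate 17, 2 members were called. No member passed the test between caffeine and water, in the home cage or after learning, although Cyp51 was lower with caffeine in both settings, with a fold of 0.899 and 0.882 respectively.

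Male C57Bl6/J mice drank plain water or water with 0.3 g/L caffeine for 2 weeks, from 8 to 9 weeks of age, and each drink was split into animals left in the home cage and animals trained in the Morris water maze, a task in which a mouse learns where a hidden platform lies. The trained animals had 3 days of training and the dorsal hippocampus was taken 1 hour after it. The groups, of 4 libraries each, are called home cage water (HC_water), home cage caffeine (HC_Caffeine), learning water (MWM_water) and learning caffeine (MWM_Caffeine); libraries are named by the animal number in the labels. The animals are wild type, the home cage groups did not swim, and the tissue was taken whole, so that fewer cells of a type and less RNA per cell cannot be told apart.

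Cells make cholesterol from acetyl-CoA. Hmgcs1 and the kinases and decarboxylase that follow it build mevalonate into isoprenoid units, Fdft1 and Sqle make and oxidise squalene, Lss closes the ring of lanosterol, and Cyp51, Msmo1, Nsdhl, Hsd17b7, Ebp, Sc5d and Dhcr7 trim lanosterol to cholesterol. Most of these genes carry sterol response elements read by SREBP2 (gene Srebf2), which is escorted by Scap when sterols are scarce and held back by Insig1 and Insig2 when they are plentiful, while SREBP1 (gene Srebf1) is better known for Fasn, Acaca and Scd1. The brain makes its own cholesterol, since lipoproteins of the blood do not cross into it in any amount, with astrocytes and myelinating oligodendrocytes as large producers, and neurons remove it through the hydroxylase Cyp46a1.

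The libraries held 23078094 to 49949281 counts, a depth at which the lowest member count in any library was 19 (Idi1). Counts are given as CPM, counts scaled to a common library size after TMM, a scaling that matches libraries on the bulk of their genes. All 12 oligodendrocyte, 12 astrocyte, 10 neuron and 10 choroid plexus markers were detected in every group, and the summed immediate early genes, which neurons switch on with activity, were 233 to 370.2 CPM in the home cage libraries and 421 to 663 CPM after learning. Some libraries stood apart. Learning water replicate 24 had 12913 CPM of summed oligodendrocyte markers, where the other libraries had 5405 to 9660 CPM. Choroid plexus markers, from the tissue that lines the ventricle beside the hippocampus, summed to 310.3 to 2371 CPM in home cage water, highest in replicate 20, and to 119 to 508 CPM in the other groups. Home cage caffeine replicate 17 had the highest share of mitochondrial counts, 4.50%, against 3.23% to 3.89% elsewhere. What these libraries do to the results is given beside each of them.

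Levels between genes were compared per kilobase of merged exons, as means over the 16 libraries. Scd2, the main stearoyl-CoA desaturase of the brain, stood alone at 287 CPM per kb (range 261 to 359.8), and the next was Hmgcs1, the synthase that commits acetyl units to mevalonate, at 56.0 CPM per kb (43.7 to 71.4). Fads1, which desaturates polyunsaturated fatty acids, followed at 42.5 CPM per kb (40.4 to 45.7), with the cholesterol hydroxylase Cyp46a1 at 37.8 (33.5 to 48.9) and the desaturase Scd1 at 37.8 (30.8 to 54.4). Fads1 overlaps both of its neighbours in this order, and Cyp46a1 and Scd1 do not differ beyond their spread, whereas Scd2 and Hmgcs1 are separated in every library. Srebf2 at 28.4 CPM per kb was higher than Srebf1 at 11.1, and the ranges over 16 libraries, 24.6 to 30.4 and 9.44 to 14.4 CPM per kb, did not meet. At the low end were Acaca, the carboxylase that makes malonyl-CoA, at 1.72 CPM per kb, the farnesyl diphosphate synthase Fdps at 0.997 and the isomerase Idi1 at 0.366. These 3 genes have sequence in common with others: of the 50-base stretches of its protein-coding transcripts, 49.1% for Acaca, 64.1% for Fdps and 28.6% for Idi1 also occur in transcripts of another gene, and reads from such stretches may not have been counted. Acat2 and Fdft1 shared 40.7% and 30.7% of theirs and had mid-range levels of 6.81 and 11.4 CPM per kb. The part of shared sequence in these levels was not tested. Merged exons also take in transcripts that are not protein-coding, and the added length can lower a level per kb. Protein-coding transcripts held 10211 of 17201 stretches for Acaca, 1798 of 4398 for Fdps and 4868 of 10883 for Lss, but 3180 of 3594 for Idi1. What this does to the order of genes was not tested. Among the 35 members the coefficient of variation over the 16 libraries ran from 3.51% for Fads1 to 14.4% for Tm7sf2, with Idi1 above them at 30.6%.

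**Figure D1:**
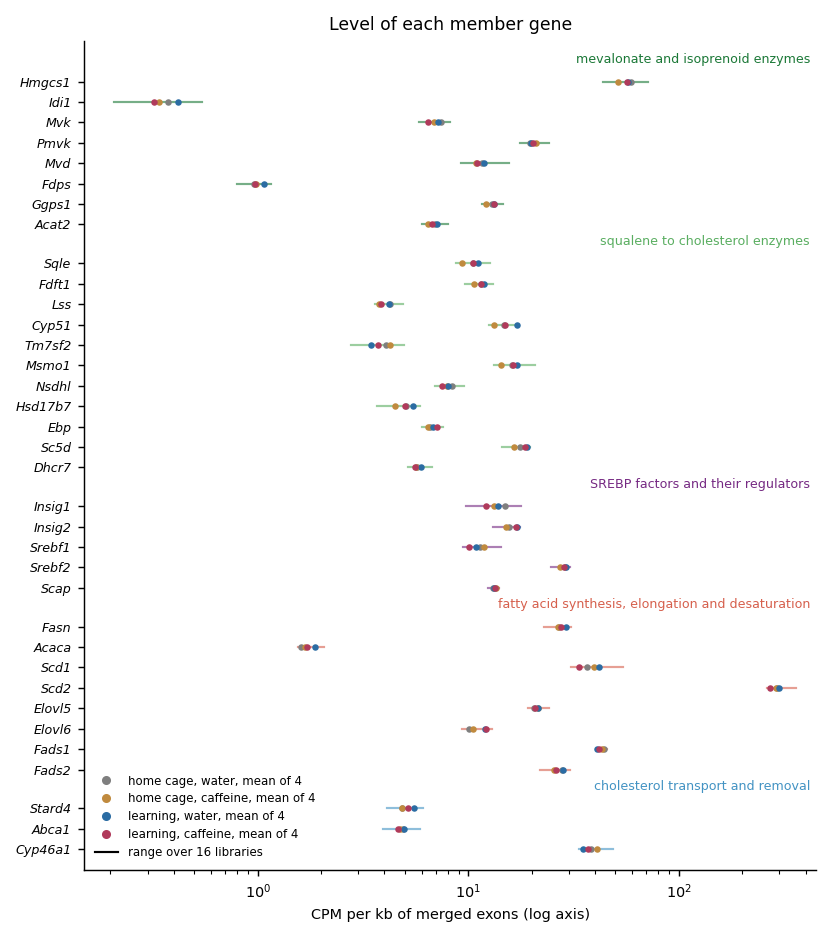
Level of the 35 member genes by role, in CPM per kb of merged exons on a log axis; points are means of 4 libraries in each group and lines the range over 16 libraries. Scd2 lies at 287 and Idi1 at 0.366 CPM per kb, and the group means of a gene lie close together beside the differences between genes.

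Sequences before the start site were read for the members with a RefSeq promoter (GRCm38.p6), because the sterol enzymes are textbook targets of SREBP, and Hmgcs1, Sc5d, Insig2 and Cyp51 are shown: Hmgcs1 as the only member whose window held the sterol response element, and the other 3 as members higher after learning that hold the CCAAT box, which the factor NF-Y reads and which SREBP targets often carry. A window ran from 250 bases before the start to 50 after it, and 28 members had one. The element TCACNCCAC, searched on both strands, was present in 1 of 28 members (3.57%), against 1.22% of 27025 genes with a window. CCAAT, likewise on both strands, was present in 21 of 28 members (75%), against 37.9% of all genes and 39.0% of protein-coding genes, and the E-box CACGTG in 6 of 28 (21.4%), against 7.24%. Elovl6 and Acaca, also higher after learning, held no CCAAT on either strand of their windows. The Acaca window began at base 84195188 of chromosome 11, inside the gene, whose annotated start is 84129672. It therefore does not show the sequence before that start. The letters of the 3 motifs do not overlap in the sequences shown. In Hmgcs1 the element lies 137 to 129 bases before the start, and in Cyp51 and Insig2 a CCAAT lies 29 to 25 bases before it. Capitals mark the sterol response element and the CCAAT boxes (ATTGG where the box is on the other strand):
Hmgcs1, chr13:119690101-119690350, plus strand: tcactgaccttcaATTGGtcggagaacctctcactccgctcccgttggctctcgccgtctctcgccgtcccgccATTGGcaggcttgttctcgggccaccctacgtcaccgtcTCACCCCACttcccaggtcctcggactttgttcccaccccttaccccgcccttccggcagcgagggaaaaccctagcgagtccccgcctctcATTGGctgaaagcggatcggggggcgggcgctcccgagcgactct
Sc5d, chr9:42264301-42264550, minus strand: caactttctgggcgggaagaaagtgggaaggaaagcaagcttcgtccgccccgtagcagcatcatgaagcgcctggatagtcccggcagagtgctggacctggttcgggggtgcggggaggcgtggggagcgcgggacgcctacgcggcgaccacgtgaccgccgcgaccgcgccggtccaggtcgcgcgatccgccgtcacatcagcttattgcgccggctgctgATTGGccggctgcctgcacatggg
Insig2, chr1:121332590-121332839, minus strand: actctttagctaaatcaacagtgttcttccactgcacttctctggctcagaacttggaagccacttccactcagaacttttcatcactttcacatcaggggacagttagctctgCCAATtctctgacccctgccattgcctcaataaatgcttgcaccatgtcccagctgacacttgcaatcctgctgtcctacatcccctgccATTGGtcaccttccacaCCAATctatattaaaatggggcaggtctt
Cyp51, chr5:4104709-4104738, minus strand: cgctgtccgccaCCAATctggtcctgagat
A match is only a run of letters, and its absence in a window says nothing on binding elsewhere.

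Learning was the factor under which members passed the test. With water, 0 of the 35 members passed at an adjusted p under 0.1, against 0.97% of all genes tested, and 4 members had an unadjusted p under 0.05, against 11.8%. With caffeine, 1 member passed, Elovl6, against 5.28% of all genes, and 6 had an unadjusted p under 0.05, against 18.8%. Averaged over both drinks, which uses all 16 libraries, 5 members (14.3%) passed, all 5 higher, against 14.5% of all genes in either direction and 7.81% higher. The share called among members in either direction is therefore near that of all genes. The 3 estimates share libraries and are given side by side.

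Elovl6, the elongase that takes palmitate to stearate, had the largest difference among members in the averaged comparison. In home cage water replicates 6, 8, 11 and 20 it was at 65.5, 69.4, 61.5 and 64.2 CPM, and in learning water replicates 24, 33, 36 and 38 at 83.5, 78.2, 75.6 and 72.8 CPM. In home cage caffeine replicates 2, 9, 14 and 17 it was at 71.9, 72.6, 66.3 and 59.9 CPM, and in learning caffeine replicates 22, 27, 30 and 40 at 83.4, 74.0, 78.8 and 76.0 CPM. Every learning library was above every home cage library with the same drink, as for 3.87% of all genes with water and 5.64% with caffeine. The log2 fold change was 0.25 with water (SE 0.06, edgeR quasi-likelihood test, adjusted p = 0.107), 0.21 with caffeine (SE 0.06, adjusted p = 0.0975) and 0.23 averaged (SE 0.05, adjusted p = 0.00612). The averaged call was kept in all 16 fits that left out 1 library, whereas the call with caffeine was lost without home cage caffeine replicate 14 or 17 (adjusted p = 0.125 and 0.230) and without learning caffeine replicate 22, 30 or 40 (adjusted p = 0.163, 0.197 and 0.134), as well as when only the 8 libraries compared were fitted (adjusted p = 0.155).

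Cyp51, the lanosterol demethylase, was at 62.8, 59.7, 64.9 and 73.9 CPM in home cage water and at 73.5, 75.6, 75.5 and 75.8 CPM in learning water, in the order of replicates given for Elovl6. In home cage caffeine it was at 62.2, 55.2, 60.7 and 56.6 CPM and in learning caffeine at 65.4, 64.5, 66.9 and 68.2 CPM. With caffeine the groups did not overlap, and with water they met only because home cage replicate 20 lay above learning replicate 24. The log2 fold change with learning was 0.20 with water (SE 0.06, adjusted p = 0.165), 0.17 with caffeine (SE 0.06, adjusted p = 0.127) and 0.19 averaged (SE 0.04, adjusted p = 0.0120), and the averaged call was kept in all 16 fits that left out 1 library. Without home cage water replicate 20, the log2 fold change with water was 0.27 and passed the test (adjusted p = 0.0621).

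Acaca, which makes the malonyl-CoA that fatty acid synthase uses, was at 28.9, 26.6, 27.05 and 27.1 CPM in home cage water and 35.1, 31.1, 31.2 and 30.3 CPM in learning water. In home cage caffeine it was at 29.5, 31.3, 26.6 and 27.1 CPM, and in learning caffeine at 29.5, 28.9, 28.9 and 30.3 CPM. With water all learning libraries were the higher, and with caffeine the groups overlapped. Its log2 fold change was 0.22 with water (SE 0.06, adjusted p = 0.143), 0.04 with caffeine (SE 0.06, adjusted p = 0.756) and 0.13 averaged (SE 0.04, adjusted p = 0.0723), and the difference between the responses was -0.18 (95% interval -0.37 to 0.00, adjusted p = 1). The averaged call was lost without home cage water replicate 20 (adjusted p = 0.108), home cage caffeine replicate 17 (0.109) or learning caffeine replicate 40 (0.109).

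Sc5d, which adds a double bond to the sterol ring, was at 73.1, 91.5, 86.1 and 90.5 CPM in home cage water and 95.2, 90.04, 93.0 and 92.7 CPM in learning water. In home cage caffeine it was at 82.1, 83.7, 86.1 and 70.3 CPM and in learning caffeine at 91.2, 85.5, 91.1 and 96.0 CPM. Both pairs of groups overlapped, and the lowest values were those of home cage water replicate 6 and home cage caffeine replicate 17. The averaged log2 fold change was 0.15 (SE 0.05, adjusted p = 0.0740), and it did not pass without home cage caffeine replicate 17 (adjusted p = 0.117), learning water replicate 36 or 38 (0.106 and 0.103) or learning caffeine replicate 30 or 40 (0.111 and 0.131).

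Insig2, which holds Scap in the endoplasmic reticulum, had much the same course, at 49.1, 58.4, 52.5 and 56.4 CPM in home cage water and 61.2, 56.1, 59.8 and 59.1 CPM in learning water. In home cage caffeine it was at 49.1, 57.0, 57.3 and 45.7 CPM and in learning caffeine at 59.8, 60.7, 60.5 and 54.3 CPM. The groups overlapped with either drink, learning caffeine replicate 40 being the lowest of the learning libraries. The averaged log2 fold change was 0.15 (SE 0.05, adjusted p = 0.0822). It did not pass without home cage water replicate 6 (adjusted p = 0.105), home cage caffeine replicate 17 (0.134), learning water replicate 36 or 38 (0.120 and 0.112) or learning caffeine replicate 27 or 30 (0.109 and 0.134).

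**Figure D2:**
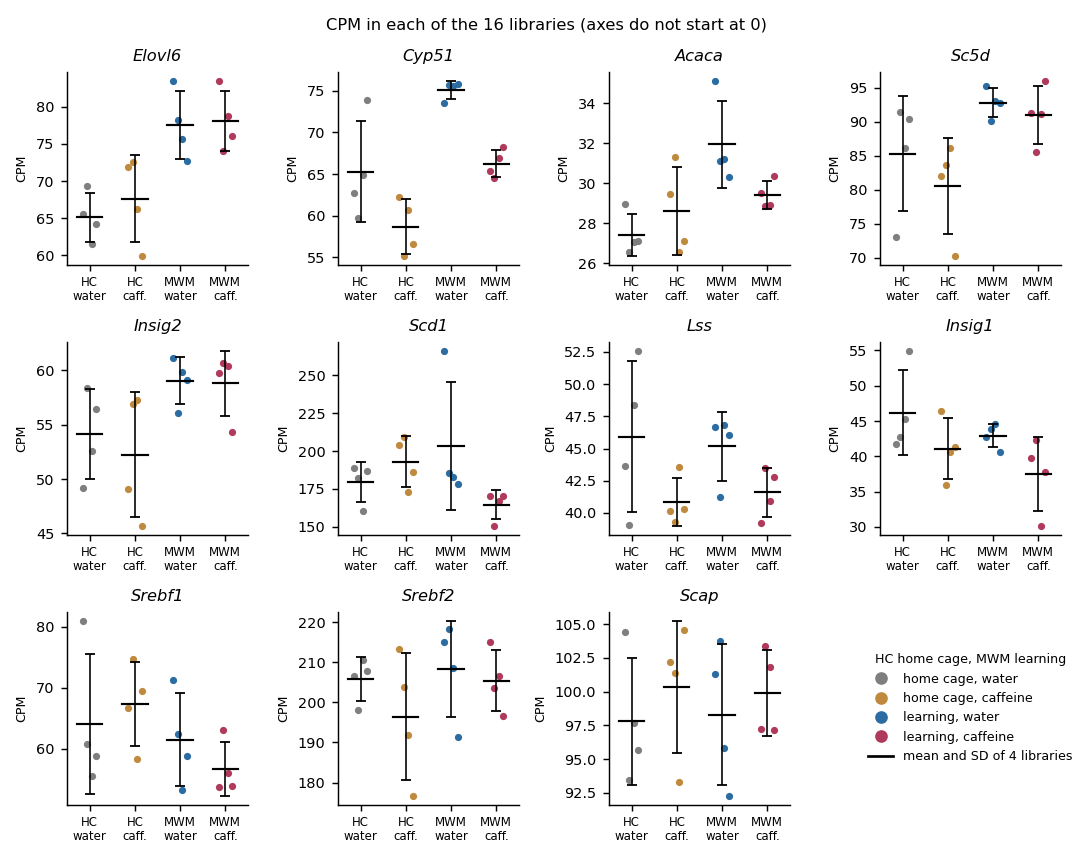
CPM of 11 member genes in each of the 16 libraries, by group, with the mean and SD of 4 libraries; the axes do not start at 0. Elovl6 lies at 72.8 to 83.5 CPM in the learning libraries and at 59.9 to 72.6 CPM in the home cage libraries, and the high point of Scd1 is learning water replicate 24 at 266 CPM.

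The averaged learning calls are given by role as counts, with no test between roles, beside 7.81% of all genes called higher and 6.71% lower. Of the 11 enzymes from squalene to cholesterol, 2 passed in the averaged comparison (Cyp51 and Sc5d), 9 had a log2 fold change above 0 and the median was 0.09. Tm7sf2, a reductase of the same stretch, lay the other way, with -0.23 under water and -0.19 under caffeine (adjusted p = 0.133 averaged), and it shares exon sequence with Vps51 on the same strand. Of the 8 enzymes of the mevalonate and isoprenoid steps, 0 passed, 6 lay above 0, and the median was 0.05. Of the 8 fatty acid genes, 2 passed (Elovl6 and Acaca) and 5 lay above 0, while the median was 0.01. Fasn, the fatty acid synthase, was at 281 to 309 CPM in home cage water and 310.4 to 337 CPM in learning water, without overlap, but at 252 to 326 CPM and 288 to 321 CPM with caffeine, which overlapped. Fads1 was at 206 to 220.1 CPM in home cage water and 194 to 203 CPM in learning water, again without overlap and in the lower direction (log2 fold change -0.10, SE 0.04, adjusted p = 0.293), a separation in that direction seen in 3.12% of all genes. Of the 5 SREBP factors and their regulators, 1 passed (Insig2), 3 lay above 0 and the median was 0.00. The 3 genes of transport and removal did not pass: Stard4, which carries cholesterol between membranes, had an averaged log2 fold change of 0.14, the exporter Abca1 -0.01 and Cyp46a1 -0.13. Over all 35 members the median was 0.04 under water, where 26 members lay above 0 against 48.5% of all genes, and 0.02 under caffeine, where 19 did against 47.1%. Without learning water replicate 24 the median under water was 0.01, with 21 members above 0. Leaving out replicate 20 of home cage water gave a median of 0.09, and 27 members above 0.

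**Figure D3:**
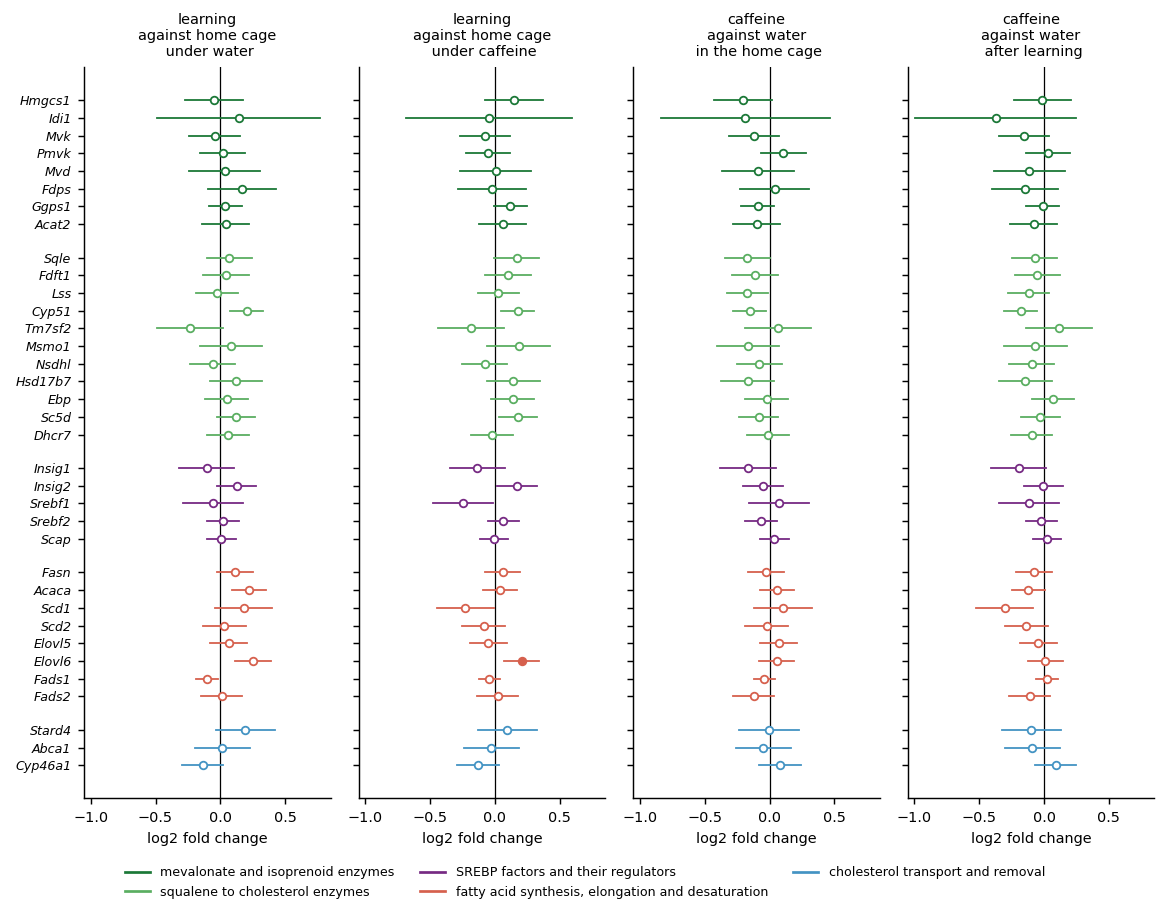
Log2 fold change of the 35 member genes, grouped by role, in the 4 comparisons of 2 groups; bars are 95% intervals of the edgeR fit and a filled point marks an adjusted p under 0.1. Elovl6 under caffeine, at 0.21, is the only filled point, and most points of both caffeine panels lie left of 0.

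Caffeine was compared with water separately in the home cage and after learning, and these comparisons share no library. In both, 0 members passed the test, as did 0% of all genes, and 2 members had an unadjusted p under 0.05 in each: Cyp51 and Lss in the home cage, Cyp51 and Scd1 after learning, all 4 values in the lower direction, against 1.85% and 2.11% of all genes in that direction. DESeq2 likewise called 0 members in either comparison.

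Cyp51 was lower with caffeine in both. In the home cage its mean was 65.3 ± 6.11 CPM with water and 58.7 ± 3.31 CPM with caffeine (SD, n = 4), and after learning 75.1 ± 1.08 CPM and 66.2 ± 1.65 CPM. After learning every caffeine library lay below every water library, as for 1.35% of all genes (exact permutation test, two-sided, p = 0.0286, the smallest that 70 assignments allow), while in the home cage the values overlapped (exact p = 0.114). The log2 fold change was -0.15 in the home cage (SE 0.06, unadjusted p = 0.0187, adjusted p = 0.997) and -0.18 after learning (SE 0.06, unadjusted p = 0.00660, adjusted p = 0.999), and -0.17 averaged (SE 0.04, unadjusted p = 8.6e-04, adjusted p = 0.560). Without home cage water replicate 20, which was the highest of its group, the home cage value was -0.09.

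Lss, the cyclase that makes lanosterol, was at 43.7, 39.1, 48.4 and 52.6 CPM in home cage water and 40.2, 39.3, 43.5 and 40.3 CPM in home cage caffeine. After learning it was at 46.7, 41.2, 46.8 and 46.0 CPM with water and 39.2, 43.5, 40.9 and 42.8 CPM with caffeine. Both pairs of groups overlapped, and the 2 highest values were home cage water replicates 20 and 11. The log2 fold change was -0.17 in the home cage (unadjusted p = 0.0396, adjusted p = 0.997), -0.12 after learning (unadjusted p = 0.132, adjusted p = 0.999), and -0.09 in the home cage without replicate 20.

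Scd1 was at 189, 182, 160.2 and 187 CPM in home cage water and 204, 209, 173 and 186 CPM in home cage caffeine. After learning it was at 266, 186, 183 and 178 CPM with water and 171, 151, 167 and 170.2 CPM with caffeine. After learning all caffeine libraries were the lower, with replicate 24 far above the other 3 water libraries, and in the home cage the groups overlapped. The log2 fold change after learning was -0.30 (SE 0.10, unadjusted p = 0.00949, adjusted p = 0.999) and -0.15 without learning water replicate 24, the library with the most oligodendrocyte markers. The response of Scd1 to learning was 0.18 with water and -0.23 with caffeine, and it was the only member whose responses differed at an unadjusted p under 0.05 (difference -0.41, SE 0.15, unadjusted p = 0.0131, adjusted p = 1). The difference was -0.25 without replicate 24, and over all genes tested 3.63% reached that p, while 0 genes passed the adjusted threshold for the difference. The 12 oligodendrocyte markers lay in the same directions as Scd1. With learning, 11 were above 0 under water (median 0.21) and 12 below 0 under caffeine (median -0.38). With caffeine after learning 12 were below 0 (median -0.37), as were 12 for the difference (median -0.63). Their part in the Scd1 values was not tested beyond the covariate fits described below.

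As a group the members leaned lower with caffeine by small amounts. In the home cage 25 of 35 had a log2 fold change below 0, against 51.3% of all genes, with a median of -0.05 (all genes 0.00), and after learning 28 of 35 did, against 51.9%, with a median of -0.08 (all genes 0.00). In both comparisons 23 members were below 0 (65.7%), against 28.5% of all genes, and 5 were above 0 in both. The enzymes of the mevalonate and isoprenoid steps and those from squalene to cholesterol, 19 in all, are called sterol enzymes here. Of these, 16 lay below 0 in the home cage and 16 after learning, with medians of -0.10 and -0.08. Of the 8 fatty acid genes, 4 lay below 0 in the home cage, with a median of 0.02, and 6 after learning, with a median of -0.09. The SREBP factors and their regulators had 3 of 5 and 4 of 5 below 0, and the genes of transport and removal 2 of 3 in both. The sterol enzymes above 0 in the home cage were Pmvk, Fdps and Tm7sf2, and after learning Pmvk, Tm7sf2 and Ebp. Genes of one pathway in the same libraries do not vary independently, so these counts are a description.

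The home cage lean moved with 1 library. Home cage water replicate 20 was the highest of its group for 19 of 35 members and for 16 of the 19 sterol enzymes, against 25.5% of all genes tested. Picked after their values were seen, Msmo1, a sterol methyl oxidase, was at 128 CPM there and 83 to 101 CPM in the other 3 libraries, and Mvd, the mevalonate decarboxylase, at 29.1 CPM and 18.9 to 19.7 CPM. Without it, 12 of the 19 enzymes lay below 0 in the home cage, with a median of -0.04, and the median of all 35 members was -0.01. Without home cage caffeine replicate 17, the library with the highest mitochondrial share, the median of all 35 was -0.02, with 23 below 0. The sterol enzymes then had 18 of 19 below 0, with a median of -0.08. Home cage water replicate 20 was also the library with the most choroid plexus markers (2371 CPM). With the summed choroid plexus markers as a covariate, an alternative added after the data were seen, 9 of the 19 sterol enzymes lay below 0 in the home cage, with a median of 0.01, 12 after learning, with a median of -0.03, and 10 when averaged, with a median of 0.00. After learning, replicate 24 of the water group was the highest of its group for 21 of 35 members and 13 of 19 sterol enzymes, against 33.4% of all genes, and without it 15 of the 19 lay below 0, with a median of -0.03. Oligodendrocyte markers were highest in that library, and with their sum as a covariate, also added after the data were seen, 15 of the 19 sterol enzymes and 26 of the 35 members lay below 0 after learning, both with a median of -0.05. In the home cage the same covariate left 16 of the 19 sterol enzymes below 0, with a median of -0.12. Averaged over both conditions without a covariate, 16 of the 19 sterol enzymes lay below 0, with a median of -0.09. In every fit that left out 1 library 16 did, with medians from -0.11 to -0.05. The averaged caffeine comparison had 6 members at an unadjusted p under 0.05, all lower (Cyp51, Lss, Insig1, Hsd17b7, Fads2 and Mvk), against 2.09% of all genes in that direction, and 0 passed after adjustment.

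**Figure D4:**
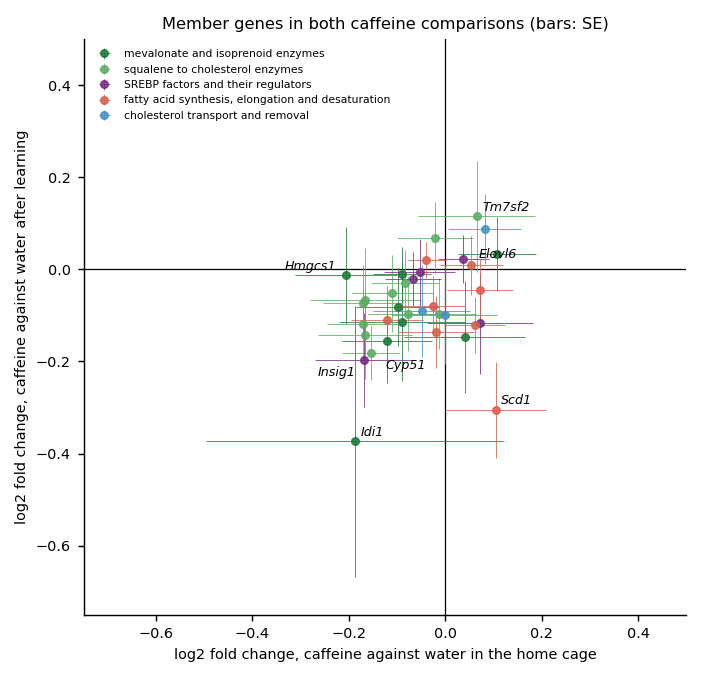
Log2 fold change of the 35 members for caffeine against water, in the home cage on the horizontal axis and after learning on the vertical axis, which share no library; bars are SE. The lower left quadrant holds 23 members, among them Cyp51 at -0.15 and -0.18, and Scd1 lies at 0.10 and -0.30.

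**Figure D5:**
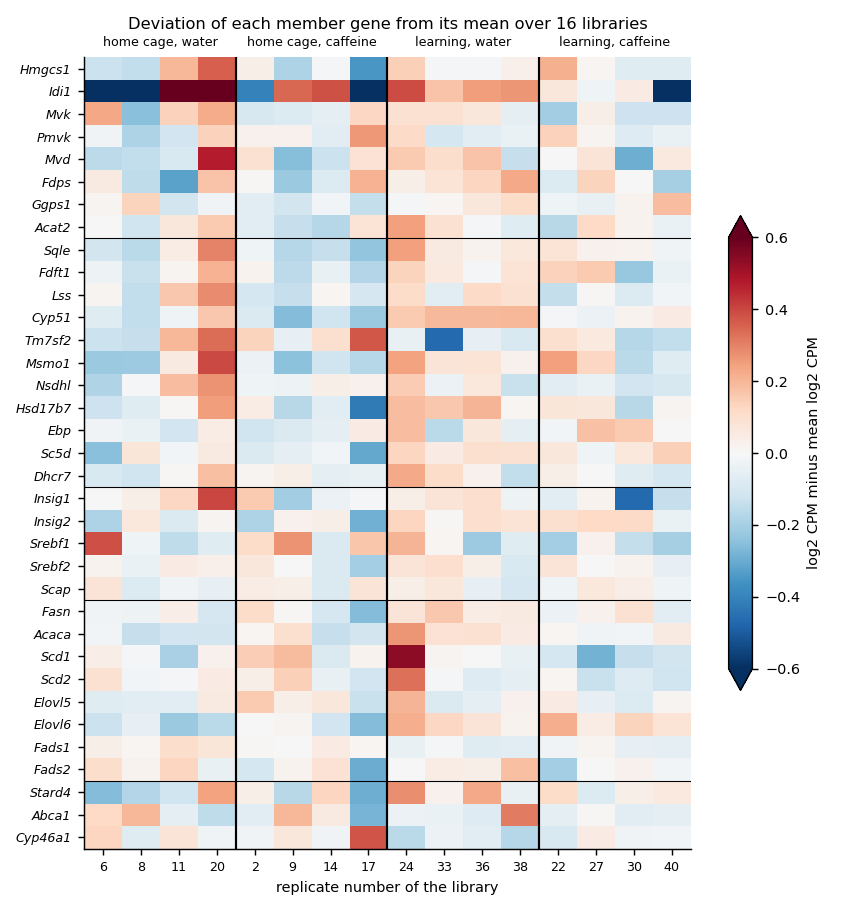
Deviation of each member from its own mean over 16 libraries, in log2 CPM, with libraries in columns by group and members in rows by role. Home cage water replicate 20 is highest of its group in 16 of the 19 sterol enzymes in the upper blocks, and learning water replicate 24 is highest of its group in 21 of 35 members; the colour scale ends at 0.6 in both directions, which Idi1 passes.

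Of the factors that switch the pathway, Scap and Srebf2 were, after Fads1, the steadiest members over the 16 libraries (coefficients of variation 4.28% and 5.32%), and Insig1 and Srebf1 were among the more variable (12.5% and 13.2%). Srebf2 was at 207, 198, 211 and 208 CPM in home cage water, 213, 204, 192 and 177 CPM in home cage caffeine, 215, 218, 209 and 191 CPM in learning water and 215, 204, 207 and 197 CPM in learning caffeine. All 4 groups overlapped, and its log2 fold changes ran from -0.07 to 0.06, with the lowest library again home cage caffeine replicate 17. Scap, the escort, was at 104, 93.5, 97.7 and 95.7 CPM, 102, 101, 93.3 and 105 CPM, 101, 104, 95.8 and 92.3 CPM, and 97.2, 103, 102 and 97.1 CPM in the same order of groups. Its log2 fold changes ran from -0.01 to 0.04, with 95% intervals inside -0.12 and 0.15. Neither the amounts of Srebf2 nor those of Scap messenger speak to how much SREBP2 is cleaved, which was not measured.

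Insig1, itself a target of SREBP and the feedback brake of the pathway, was at 41.7, 42.7, 45.3 and 54.97 CPM in home cage water, 46.5, 35.98, 40.6 and 41.3 CPM in home cage caffeine, 42.7, 43.8, 44.6 and 40.7 CPM in learning water and 39.8, 42.2, 30.2 and 37.8 CPM in learning caffeine. The highest value was home cage water replicate 20 and the lowest learning caffeine replicate 30, and the groups overlapped. Its log2 fold change with caffeine was -0.17 in the home cage and -0.20 after learning (averaged -0.18, SE 0.07, unadjusted p = 0.0209, adjusted p = 0.986), and with learning -0.12 averaged (SE 0.07, adjusted p = 0.304), opposite in sign to Insig2. Srebf1 was at 81.0, 60.7, 55.6 and 58.8 CPM in home cage water, 66.7, 74.7, 58.2 and 69.5 CPM in home cage caffeine, 71.3, 62.5, 53.2 and 58.9 CPM in learning water and 53.7, 63.0, 56.0 and 53.9 CPM in learning caffeine. Its largest difference was with learning under caffeine, -0.25 (SE 0.11, unadjusted p = 0.0383, adjusted p = 0.236), where only learning replicate 27 reached into the range of the home cage libraries.

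Groups that did not overlap were counted for each comparison. Of the 35 members, 3 were higher and 1 lower with learning under water (8.57% and 2.86%, against 3.87% and 3.12% of all genes). With learning under caffeine 3 were higher and 2 lower (8.57% and 5.71%, against 5.64% and 5.24%). There were 3 lower with caffeine after learning (8.57%, against 1.35% of all genes). In the home cage no member's caffeine and water values were apart, against 0.981% of all genes higher and 1% lower. With learning under caffeine, Scd1 was among those lower, at 173 to 209 CPM in the home cage and 151 to 171 CPM after learning (log2 fold change -0.23, SE 0.10, adjusted p = 0.247). Sqle, the epoxidase of squalene, was at 48.7 to 56.4 CPM in the home cage and 56.4 to 60.7 CPM after learning (log2 fold change 0.17, adjusted p = 0.280), and Nsdhl was at 22.1 to 23.1 CPM and 20.8 to 21.9 CPM (-0.08, adjusted p = 0.631). After learning, Idi1 was at 1.38 to 1.60 CPM with water and 0.791 to 1.28 CPM with caffeine, the log2 fold change being -0.37 with an SE of 0.29 (adjusted p = 0.999), so that the low counts of Idi1 give an interval from -0.99 to 0.25.

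Genes of the same pathways that are not members were counted for comparison, from lists of 20 other sterol and isoprenoid genes, 20 of cholesterol transport, 20 regulators around SREBP and LXR and 30 of fatty acid synthesis and activation, 90 in all and all of them tested. With caffeine, 0 of 90 passed in either setting. With learning under water 0 of 90 passed. With learning under caffeine 5 of 90 did, against 5.28% of all genes: Aacs, the cytosolic acetoacetyl-CoA synthetase, rose by 0.25 (SE 0.06, adjusted p = 0.0345), the lysosomal acid lipase Lipa by 0.34 (SE 0.10, adjusted p = 0.0680) and Mlxip, a partner of Mlx in glucose sensing, by 0.24 (SE 0.06, adjusted p = 0.0403). Mylip, a ligase that marks lipoprotein receptors for degradation, fell by 0.28 (SE 0.08, adjusted p = 0.0573) and Fabp7, a fatty acid binding protein of astrocytes and progenitors, fell by 0.72 (SE 0.16, adjusted p = 0.0298). In the averaged learning comparison 11 of the 90 rose and 5 fell, against 7.81% and 6.71% of all genes. Among the markers, with learning under caffeine, 5 of 8 microglia markers, the oligodendrocyte marker Opalin and the astrocyte marker Gfap fell and the astrocyte marker Gjb6 rose, against 2.13% of all genes that fell and 3.16% that rose. With learning under water 5 of 10 choroid plexus markers fell, against 0.331% of all genes, and their summed level was 310.3 to 2371 CPM in the home cage and 167 to 439.9 CPM after learning. In the averaged comparison, in which the 5 members were called, 9 of 10 choroid plexus markers, 5 of 8 microglia markers and 2 of 12 astrocyte markers fell. The neuron marker Nrgn and the endothelial marker Cldn5 also fell. There, 1 astrocyte marker rose, as did Tns3, a marker of oligodendrocyte precursors and newly formed cells. The summed astrocyte markers ranged from 5538 to 6437 CPM in the home cage and from 5488 to 6473 CPM after learning. The part of these cell types in the member calls was not tested beyond the covariate fits of the oligodendrocyte and choroid plexus sums.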

How the data were processed

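RNA was taken from the dorsal hippocampus of 16 mice, 4 in each of 4 groups, and polyA RNA was sequenced as single reads of 50 bases. Per the labels and the study's methods, the authors demultiplexed with bcl2fastq 2.17.1.14, aligned to mm10 with STAR and counted reads per Ensembl gene (release 90) with HTSeq 0.6.1p1; the deposited values are raw counts, whole numbers with no normalization. The strand setting of the counting is not given in the sources used here, so for 9 members with exons that overlap a gene on the other strand, Cyp51 (Akap9) and Elovl6 included, and 4 on the same strand, reads of the neighbour could not be separated. Identifiers were matched to GENCODE M21 (35247 of 35328 genes), which gave symbols and exon lengths.

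Counts were fitted with edgeR 4.0.16 (R 4.3.3): TMM scaling, the default count filter, a mean per group over all 16 libraries, the quasi-likelihood test and Benjamini-Hochberg adjustment over 17830 genes, called at an adjusted p under 0.1. There were 7 comparisons: learning within each drink, caffeine within each condition, the difference between the learning responses, and both factors averaged. DESeq2 1.42.0, other size factors, other filters, robust dispersions, a threshold of 0.05, fits of only the groups compared, and fits without each library were alternatives. Tested on data simulated for learning under caffeine over 17670 genes, the fit called 81 of 100 genes changed by 1 on the log2 scale, 57 of 100 changed by 0.5 and 9 of 17470 unchanged genes. Changes smaller than 0.5, such as those of the members called, were not simulated. Exact permutation tests (two-sided, 70 assignments) used CPM. The median SE of a log2 fold change over all genes was 0.10 between 2 groups, which limits what 4 libraries a group can show. Replicates of a group differed beyond counting noise in all 24 pairs, and nothing in the labels says whether animals shared a cage or day, so p-values measure the spread between these samples.

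The members and all gene lists were chosen with earlier results of these data known. Given in every library are members called in any comparison, the 2 members of smallest unadjusted p in each comparison of 2 groups, Cyp51, and Srebf1, Srebf2, Insig1 and Scap; the other members are given by ranges and counts. Of the other lists, at most 4 called genes per list and comparison are named. Shared sequence was counted as 50-base stretches that also occur in a transcript of another gene.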

Additional observations from a re-analysis of the deposited data

Results flagged for a closer look

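Of 144 sets of 4 libraries, the 35 members and their sum in each group, 15 held a library whose distance from the nearest other, as a share of the group's range, was over Dixon's 95% critical value for 4 samples, where chance alone gives about 1 set in 20. In learning water replicate 24, Sqle was at 68.0 CPM (others 58.2 to 59.8), Scd1 at 266 CPM (178.0 to 186), Scd2 at 1966 CPM (1482 to 1560.0) and Cyp51 at 73.5 CPM, the lowest of its group (75.5 to 75.8). In replicate 33 of that group Lss was at 41.2 CPM (46.0 to 46.9) and Tm7sf2 at 12.2 CPM (15.8 to 16.4), and in replicate 38 Mvk was at 17.9 CPM (19.5 to 19.9) and Abca1 at 61.3 CPM (46.8 to 48.3). In home cage water replicate 20, Mvd was at 29.1 CPM (18.9 to 19.7) and Elovl5 at 76.8 CPM (70.3 to 70.8). In home cage caffeine, Mvk was at 20.3 CPM in replicate 17 (17.4 to 17.9) and Fads1 at 211.5 CPM in replicate 14 (205 to 206). In learning caffeine, Idi1 was at 0.791 CPM (1.199 to 1.28) and Insig2 at 54.3 CPM (59.8 to 60.7) in replicate 40, and Abca1 at 49.6 CPM in replicate 27 (47.3 to 47.5). No member's response to learning differed between the drinks at an adjusted p under 0.1.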

How the results depend on the processing

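No paired analysis was possible because the animal numbers in the labels differ in every group. Each alternative was run for members whose unadjusted p was under 0.05, or whose groups did not overlap, in that comparison, and none of these 33 values turned its direction. They were picked from the same data for lying apart, so a kept direction was likely beforehand and is only a description. Directions of other members did change. With the choroid plexus covariate, 9 of the 19 sterol enzymes lay below 0 for caffeine in the home cage, against 16 in the main fit. The caffeine comparisons and the difference between the learning responses had 0 member calls under every alternative. With learning under water, where 0 members were called, DESeq2 called 3 (Acaca, Cyp51 and Elovl6), keeping every gene with at least 1 count called 1 (Elovl6), and the oligodendrocyte marker sum as a covariate, added after seeing the data, called 2 (Acaca and Elovl6). With learning under caffeine, where 1 was called, DESeq2 called 2, the choroid plexus marker sum as a covariate called 3, and fitting only the libraries compared, keeping every gene with at least 1 count, and a threshold of 0.05 each called 0. In the averaged learning comparison, 5 members were called at 0.1 and 2 at 0.05. Leaving out each library in turn gave 0 to 1 calls with water, 0 to 1 with caffeine and 2 to 7 averaged, the 2 being without home cage caffeine replicate 17. The cause of these changes was not tested, apart from the stricter threshold. The counts under the alternatives are given without the calls over all genes in the same fit. They do not show whether members moved apart from other genes.

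With 4 libraries a group, the median SE between 2 groups was 0.10 over all genes and 0.08 over the members. Differences of the size seen for most members could therefore not be told from 0. Low counts limit Idi1, and shared sequence may limit Fdps, Acaca, Acat2, Fdft1 and Idi1, which was not tested. Choroid plexus tissue in home cage water cannot be told apart from that group.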
